A study of Homo sapiens with 12 samples.

Results

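Chromosome 9 was followed along its short arm (9p) and long arm (9q) in the 4 peak lists of the series. All intervals that the lists place on chromosome 9 were taken, 4967 of the 164693 intervals deposited, and were split at 50 Mb into 9q and 9p and counted in 1 Mb bins by their summit. Of the 4967 intervals, 468 came from Huh7 anti-HOXA13, 1116 from Huh7 anti-HA, 2254 from HepG2 anti-HOXA13 and 1129 from HepG2 anti-HA. The chromosome was selected on the interval counts themselves, because the Huh7 lists hold many more intervals on 9q than on 9p. The counts by arm, and everything counted in the same bins, are therefore a description and carry no test.

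The intervals come from chromatin immunoprecipitation with sequencing (ChIP-seq) in Huh7 and HepG2, a pair of human cell lines labelled as derived from hepatocellular carcinoma. Huh7 anti-HA and HepG2 anti-HA are ChIP of the HA epitope tag in cells of each line made by stable transfection to carry HA-tagged HOXA13. Huh7 anti-HOXA13 and HepG2 anti-HOXA13 are ChIP with an antibody to HOXA13 in the cells without the tagged protein. Whether the transfected cells were 1 clone or a pool is not given in the sources used here. Behind each list stands 1 ChIP library, compared with input from those cells, so there is no replicate, no test between the lines was possible, and all intervals in brackets are 95% intervals that cover counting error only. Over the 1 Mb bins of an arm, the variance of the counts over their mean ran from 3.43 (HepG2 anti-HA, 9q) to 7.49 (Huh7 anti-HA, 9p). The counts were thus clustered along the arms, and brackets on densities and their ratios are too narrow for such counts. Mouse IgG libraries of the same cells were not analysed here.

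HOXA13 is a homeodomain transcription factor of the HOXA cluster, best known for its part in forming the distal limb and the genitourinary tract. Chromosome 9 has a large block of heterochromatin beside its centromere on 9q, flanked on both sides by duplicated sequence. Its short arm carries CDKN2A, a cell-cycle inhibitor gene that is often deleted in cancers, and the long arm carries genes such as ABL1, a tyrosine kinase, and NOTCH1, a receptor. Both lines have rearranged karyotypes, and DNA copy number was not analysed here.

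Most chromosome 9 intervals in every list but HepG2 anti-HA were weak calls. The lists extend to a p of 0.01 at the summit, and a q of 0.05 was reached by 42 of 468 intervals (8.97%; 9.31% over all chromosomes) in Huh7 anti-HOXA13 and 82 of 1116 (7.35%; 6.68%) in Huh7 anti-HA. In HepG2 it was reached by 167 of 2254 (7.41%; 10.3%) with anti-HOXA13 and 642 of 1129 (56.9%; 51.2%) with anti-HA. The median chromosome 9 summit stood on 14 ChIP fragments in the Huh7 anti-HOXA13 list and 11 in that of Huh7 anti-HA, and on 7 and 15 in those of HepG2 anti-HOXA13 and HepG2 anti-HA. These numbers were solved from the deposited fold and p.

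Huh7 intervals lay mostly on 9q with both antibodies, while HepG2 intervals were spread more evenly over the arms. The covered part of chromosome 9, outside a stretch of 18.3 Mb with no interval in any list (47258202 to 65602687, GRCh37), measured 75.5 Mb on 9q and 47.2 Mb on 9p, so that 61.5% of it was 9q. In Huh7 anti-HOXA13, 409 intervals lay on 9q and 59 on 9p, which put 87.4% (84.04 to 90.3%) on 9q. In Huh7 anti-HA, 962 lay on 9q and 154 on 9p, or 86.2% (84.04 to 88.2%) on 9q. In HepG2 anti-HOXA13, 1490 lay on 9q and 764 on 9p, or 66.1% (64.1 to 68.1%) on 9q. HepG2 anti-HA had 800 on 9q and 329 on 9p, or 70.9% (68.1 to 73.5%) on 9q. All 4 lists thus held more than the 61.5% that the length of 9q would give, and the Huh7 lists held the largest shares.

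Per Mb of covered sequence, Huh7 anti-HOXA13 held 5.42 intervals (4.90 to 5.97) on 9q and 1.25 (0.951 to 1.61) on 9p, a 9q over 9p ratio of 4.34 (3.29 to 5.80). HepG2 anti-HOXA13 held 19.7 per Mb (18.7 to 20.8) on 9q and 16.2 (15.04 to 17.4) on 9p, a ratio of 1.22 (1.12 to 1.33). With the tag antibody, Huh7 held 12.7 per Mb (11.9 to 13.6) on 9q and 3.26 (2.77 to 3.82) on 9p, a ratio of 3.91 (3.29 to 4.66). HepG2 anti-HA held 10.6 per Mb (9.87 to 11.4) on 9q and 6.96 (6.23 to 7.76) on 9p, a ratio of 1.52 (1.34 to 1.73). The 9q over 9p ratio of Huh7 divided by that of HepG2 was 3.55 (2.66 to 4.82) with anti-HOXA13 and 2.57 (2.07 to 3.20) with anti-HA. Among intervals with q of 0.05 or below the anti-HA value was 1.67 (0.916 to 3.24), and with all lists held to the length of the shortest it was 1.69 (1.16 to 2.47). At -log10 p of 3 or more it was 2.47 (1.91 to 3.21).

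The low count on 9p, more than a high count on 9q, set Huh7 apart. Relative to the median autosome of the same list, 9q with anti-HOXA13 stood at 1.47 times in Huh7 (1.33 to 1.62) and at 0.944 times in HepG2 (0.897 to 0.993). With anti-HA it stood at 1.19 times in Huh7 (1.12 to 1.27) and at 1.09 times in HepG2 (1.02 to 1.17). The short arm stood at 0.339 times in Huh7 (0.258 to 0.438) and 0.774 times in HepG2 (0.720 to 0.830) with anti-HOXA13. With anti-HA the short arm stood at 0.305 times in Huh7 (0.259 to 0.357) and 0.719 times in HepG2 (0.643 to 0.801). Taken whole, chromosome 9 was an ordinary autosome, with the density ranked 11 of 22 in Huh7 anti-HOXA13, 15 in Huh7 anti-HA and 13 in each HepG2 list.

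Other autosomes had unequal arms too, and chromosome 9 was the extreme one in Huh7. In Huh7 anti-HOXA13, the 16 other autosomes with at least 10 Mb covered on each arm had q over p ratios with a median of 0.9001, from 0.371 on chromosome 4 to 2.42 on chromosome 6. In Huh7 anti-HA they had a median of 1.02 and ran from 0.357 on chromosome 11 to 2.66 on chromosome 6. Chromosome 9 ranked 1 of 17 in both lists, with chromosome 6 next. In HepG2 anti-HOXA13 it ranked 5 of 17, and the highest ratio was 1.47 on chromosome 20. In HepG2 anti-HA it again ranked 1, just above the 1.38 of chromosome 5.

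**Figure D1:**
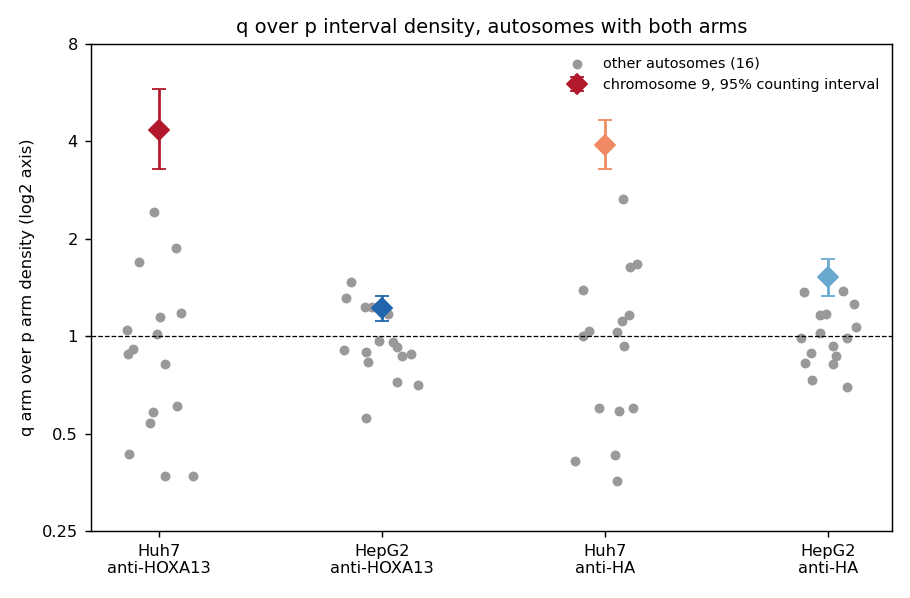
Density of intervals on the q arm over that on the p arm (log2 axis) for chromosome 9 (coloured diamonds, bars give the 95% counting interval) and for 16 other autosomes (grey points), in each of the 4 lists. Chromosome 9 lies above all grey points in Huh7, at 4.34 and 3.91, and within or just above them in HepG2, at 1.22 and 1.52.

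Most 1 Mb bins of the short arm were low in Huh7. A bin was called low at 0.5 times the median autosomal bin or less, and high at 2 times or more. The median autosomal bin held 3 intervals with anti-HOXA13 and 9 with anti-HA in Huh7, and 17.5 and 10 in HepG2. Of the 48 covered 9p bins, 39 were low in Huh7 anti-HOXA13, where 34.5% of all autosomal bins were low, and 8 in HepG2 anti-HOXA13, where 12.5% were. In Huh7 anti-HA 37 were low, against 29.7% of all autosomal bins, and in HepG2 anti-HA 24 were low, against 27.3%. HepG2 anti-HA was thus also sparse on 9p, in 50% of its bins. With every list held to the length of the shortest, 81.2% of 9p bins were low in Huh7 and 47.9% in HepG2 with anti-HOXA13, and 75% in Huh7 and 52.1% in HepG2 with anti-HA. At that length 55.8% of the 9q bins of HepG2 anti-HOXA13 were low as well, and its high bins made up 16.9% on 9q and 16.7% on 9p. The share over all autosomal bins was not computed at that length, so these shares cannot be set against the other autosomes.

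The long arm held more high bins in Huh7 than in HepG2. Of 77 covered 9q bins, 29 were high in Huh7 anti-HOXA13 (26.3% over all autosomal bins) and 5 in HepG2 anti-HOXA13 (17.9%). In Huh7 anti-HA 20 were high (19.8%), and in HepG2 anti-HA 5 were (19.7%). The shares on 9q came to 37.7% and 26.0% in Huh7, and to 6.49% in each HepG2 list. With anti-HOXA13, 12 of the 9q bins were low in Huh7 (15.6%, against 34.5% of all autosomal bins) and 7 in HepG2 (9.09%, against 12.5%). With anti-HA 14 were low in Huh7 (18.2%, against 29.7%) and 17 in HepG2 (22.1%, against 27.3%). Among intervals with -log10 p of 3 or more, Huh7 anti-HOXA13 had 32.5% high and 36.4% low 9q bins. With every list held to the length of the shortest, the shares of high bins were 37.7% in Huh7 and 16.9% in HepG2 with anti-HOXA13. With anti-HA they were 31.2% in Huh7 and 24.7% in HepG2. For that p limit and that length the share over all autosomal bins was not computed, so no background stands beside these values. The highest 9q bins differed between lists: 84 to 85 Mb and 99 to 100 Mb with 19 intervals each in Huh7 anti-HOXA13, 88 to 89 Mb with 29 in Huh7 anti-HA, 138 to 139 Mb with 54 in HepG2 anti-HOXA13, and 99 to 100 Mb with 27 in HepG2 anti-HA.

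Bins empty of Huh7 intervals were frequent on 9p. No interval of either antibody lay in 4 of 77 9q bins and 12 of 48 9p bins (25%) in Huh7, against 5.6% of all autosomal bins. In HepG2 every chromosome 9 bin held an interval of at least 1 antibody, and 0.0732% of all autosomal bins held none. HepG2 anti-HA alone left 2 9q and 3 9p bins empty. The HepG2 lists are longer, with 71999 (anti-HOXA13) and 34849 (anti-HA) intervals over all chromosomes, against 10414 and 28809 in Huh7. Empty bins were not counted at equal list length. Runs of at least 3 empty Huh7 bins occurred 10 times on 5 autosomes, and 2 of them lay on chromosome 9. The run on 9p, 8 to 12 Mb, held 40 intervals of HepG2 anti-HOXA13 and 7 of HepG2 anti-HA. The run on 9q, 120 to 123 Mb, held 43 of HepG2 anti-HOXA13 and 5 of HepG2 anti-HA.

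**Figure D2:**
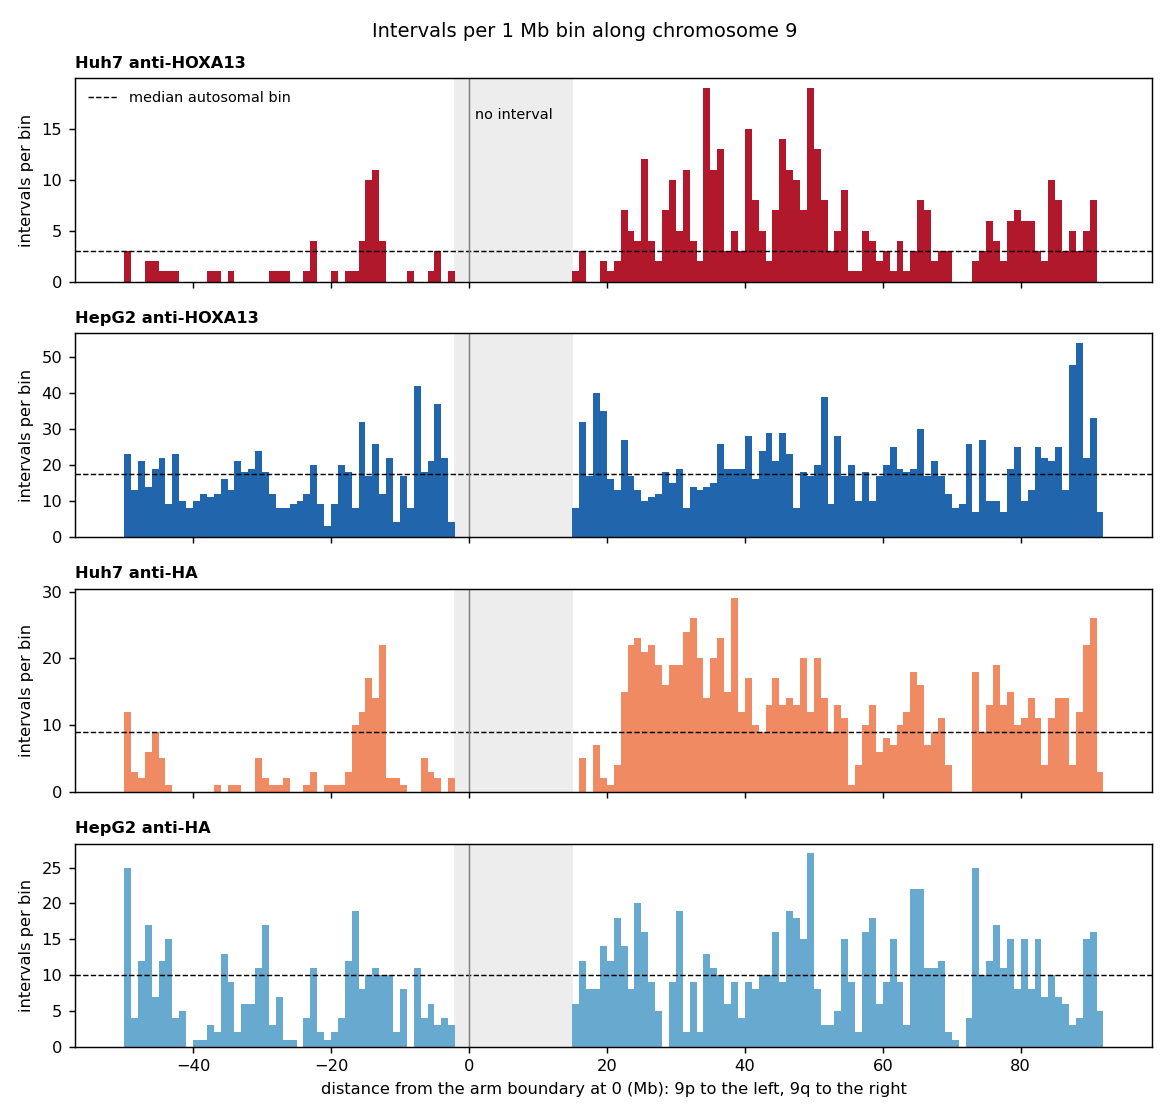
Intervals per 1 Mb bin along chromosome 9 in the 4 lists, plotted by distance in Mb from the arm boundary, with 9p to the left and 9q to the right. The dashed line is the median autosomal bin of the list and the grey band is the stretch with no interval; in both Huh7 panels most 9p bins lie below the dashed line outside 1 block close to 15 Mb left of the boundary, and 9q is filled from 22 Mb onward with a gap at 70 to 73 Mb.

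Both Huh7 lists were dense or sparse in the same broad stretches of the chromosome, though their counts in single bins could differ. The stretches described next were chosen after the bin counts were seen. The clearest was a block on 9p, 33 to 38 Mb. Its 5 bins held 1, 4, 10, 11 and 4 intervals in Huh7 anti-HOXA13, and 8, 32, 17, 26 and 12 in HepG2 anti-HOXA13. They held 10, 12, 17, 14 and 22 in Huh7 anti-HA, and 19, 8, 10, 11 and 10 in HepG2 anti-HA. The bins on either side held 1 and 0 intervals in Huh7 anti-HOXA13, and 3 and 2 in Huh7 anti-HA.

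With 10.6% of the covered 9p length, the block held 50.8% of the 9p intervals of Huh7 anti-HOXA13 and 12.4% of those of HepG2 anti-HOXA13. It held 48.7% of those of Huh7 anti-HA and 17.6% of those of HepG2 anti-HA. Its density over the remainder of 9p with anti-HOXA13 was 8.74 in Huh7 (5.07 to 15.1) and 1.20 in HepG2 (0.957 to 1.49). With anti-HA it was 8.02 in Huh7 (5.77 to 11.1) and 1.81 in HepG2 (1.34 to 2.41). Within the block Huh7 was not low: with anti-HOXA13 it reached 1.63 times the median autosome (1.10 to 2.33), and with anti-HA at 1.405 times (1.10 to 1.76). Outside it, 9p stood with anti-HOXA13 at 0.187 times in Huh7 and 0.758 times in HepG2, and with anti-HA at 0.175 times in Huh7 and 0.662 times in HepG2.

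The first part of 9q resembled the sparse part of 9p in Huh7 and not in HepG2. From 65 to 72 Mb, next to the stretch with no interval, Huh7 anti-HOXA13 held 9 intervals (1.41 per Mb) and HepG2 anti-HOXA13 held 161 (25.2 per Mb). Huh7 anti-HA held 19 (2.97 per Mb) and HepG2 anti-HA held 78 (12.2 per Mb). Set over the rest of 9q, the density there with anti-HOXA13 was 0.243 in Huh7 (0.110 to 0.466) and 1.31 in HepG2 (1.10 to 1.54). With anti-HA it was 0.218 in Huh7 (0.130 to 0.342) and 1.17 in HepG2 (0.912 to 1.48). The change in Huh7 thus fell near 72 Mb on 9q and not at the centromere. The bins at 70 and 71 Mb held 1 and 4 Huh7 anti-HA intervals, and those at 72 and 73 Mb held 15 and 22. From 65 to 72 Mb the pileup expected from input was over 3 times the genome background under 14 of the 161 HepG2 anti-HOXA13 intervals. On all of 9q it was so under 20 of 1490. In HepG2 anti-HA it was so under 14 of the 78, and under 141 of 800 on all of 9q. In Huh7 it was so under 0 of the 9 with anti-HOXA13 and 1 of the 19 with anti-HA. The part of input in these counts was not tested.

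The stretch from 72 to 105 Mb was the densest of the chromosome in both Huh7 lists. With anti-HOXA13 it reached 2.17 times the median autosome in Huh7 (1.91 to 2.44) and 0.892 times in HepG2 (0.823 to 0.965). With anti-HA it reached 1.60 times in Huh7 (1.47 to 1.74) and 1.07 times in HepG2 (0.957 to 1.19). Past 105 Mb the Huh7 density was lower. From 105 to 120 Mb it was, with anti-HOXA13, 0.402 times that of the stretch before in Huh7 (0.289 to 0.548), against 0.977 times in HepG2 (0.844 to 1.13). With anti-HA it was 0.530 times in Huh7 (0.437 to 0.641), against 1.08 times in HepG2 (0.890 to 1.30). Both Huh7 lists stood near the median autosome there, at 0.870 and 0.849 times.

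From 120 to 123 Mb no Huh7 interval was called with either antibody. A count of 0 allows up to 3 intervals, or 1 per Mb, which is 0.272 times the median autosome in Huh7 anti-HOXA13 and 0.0937 times in Huh7 anti-HA. HepG2 anti-HOXA13 held 43 intervals there, 0.686 times (0.496 to 0.924) its median autosome, and HepG2 anti-HA held 5, 0.172 times (0.0559 to 0.402). HepG2 anti-HA was therefore also sparse in these bins. From 123 Mb to the end of 9q the anti-HOXA13 lists stood at 1.33 times in Huh7 and 1.05 times in HepG2, and the anti-HA lists at 1.26 times in Huh7 and 1.19 times in HepG2.

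**Figure D3:**
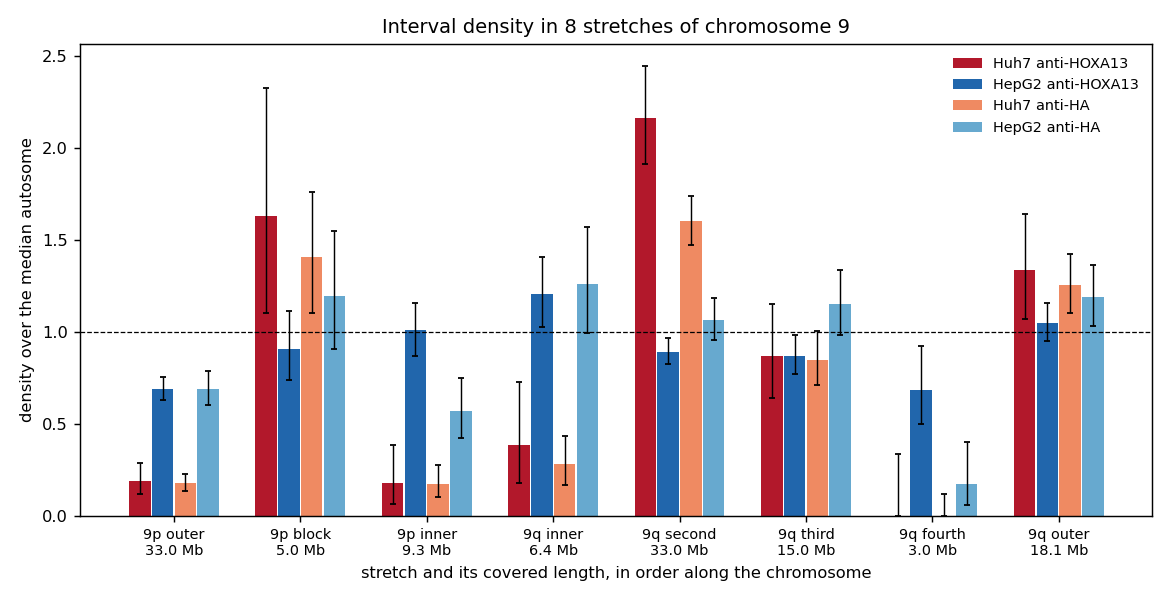
Interval density in 8 stretches of chromosome 9, in their order along it, relative to the median autosome of the same list (dashed line at 1); bars are the 4 lists and error bars give 95% Poisson intervals. The Huh7 bars fall below 0.4 in the outer and inner parts of 9p and in the first stretch of 9q, and reach 2.17 and 1.60 in the second stretch of 9q, where the HepG2 bars stand at 0.892 and 1.07.

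Bin counts ran together between the 2 antibodies in Huh7 but less so in HepG2. Over the 48 bins of 9p the Huh7 lists had a Pearson r of 0.74 (Spearman rho 0.60), and over the 77 bins of 9q an r of 0.46 (rho 0.58). The HepG2 lists had an r of 0.33 (rho 0.49) on 9p and -0.06 (rho 0.05) on 9q. Over the 2609 bins of the other autosomes r was 0.62 in Huh7 (rho 0.73) and 0.66 in HepG2 (rho 0.45). By both measures the HepG2 value on 9q was below that of the other autosomes, while on 9p r was below it and rho was not. The value of the other autosomes pools bins of many chromosomes, and so includes differences in density between chromosomes. No value within 1 arm of another autosome was computed, so 9q is not shown to be unusual in this. Between lines with the same antibody, r on 9q was 0.06 with anti-HOXA13 and 0.28 with anti-HA, and on 9p 0.25 and 0.48. Bins of 1 library are not replicates, and bins share sequence composition and mappability between lists.

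Within each list the share of intervals past q of 0.05 differed between the arms by less than counting error. The share with q of 0.05 or below was 8.80% (6.24 to 11.98%) on 9q and 10.2% (3.82 to 20.8%) on 9p in Huh7 anti-HOXA13, and 7.32% (6.04 to 8.76%) on 9q and 7.59% (5.81 to 9.70%) on 9p in HepG2 anti-HOXA13. It was 6.96% (5.44 to 8.76%) on 9q and 9.74% (5.55 to 15.6%) on 9p in Huh7 anti-HA, and 58.4% (54.9 to 61.8%) on 9q and 53.2% (47.6 to 58.7%) on 9p in HepG2 anti-HA. The intervals of the 9q and 9p shares overlap in all 4 lists. With anti-HOXA13 the median fold over input lay at 2.64 on 9q and 2.53 on 9p in Huh7, and at 2.64 and 2.76 in HepG2. With anti-HA it lay at 2.56 on 9q and 2.63 on 9p in Huh7, and at 2.98 on both arms in HepG2.

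Strong calls, with -log10 q of 5 or more, were few on chromosome 9 except in HepG2 anti-HA. Huh7 anti-HOXA13 had 11 on 9q and 1 on 9p (2.55% of the list over all chromosomes), and HepG2 anti-HOXA13 had 2 on 9q and 0 on 9p (0.753%). Huh7 anti-HA had 1 on each arm (0.399%). HepG2 anti-HA had 211 of 800 on 9q (26.4%, 23.4 to 29.6%) and 63 of 329 on 9p (19.1%, 15.04 to 23.8%), where 21.6% of the list over all chromosomes were strong. The interval of the 9q share lies above that value, and the interval of the 9p share holds it. Intervals of at least 5-fold numbered 8 on 9q and 1 on 9p in Huh7 anti-HOXA13 (1.98% over all chromosomes), 0 on both arms in HepG2 anti-HOXA13 (0.124%), 0 on 9q and 1 on 9p in Huh7 anti-HA (0.0764%), and 108 on 9q and 39 on 9p in HepG2 anti-HA (10.9%).

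Input under the intervals was somewhat higher on 9q than on 9p in 3 of the lists. The expected pileup, set by input, was divided at each summit by the genome background of the list. The result had a median of 1.33 on 9q and 1.23 on 9p in Huh7 anti-HOXA13, 1.45 on 9q and 1.29 on 9p in Huh7 anti-HA, and 1.65 on 9q and 1.24 on 9p in HepG2 anti-HA. It was 1 on both arms in HepG2 anti-HOXA13, where 74.5% of 9q and 78.9% of 9p intervals stood at the background itself. In the sparse part of 9p from its end to 33 Mb the Huh7 medians were 1.15 with anti-HOXA13 and 1.24 with anti-HA, and from 72 to 105 Mb on 9q they were 1.45 and 1.42. The input values exist only where an interval was called. Their part in the difference between the arms was not tested.

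Raised input, an expected pileup over 3 times the background, lay under 10.3% (7.50 to 13.6%) of 9q and 13.6% (6.04 to 24.98%) of 9p intervals in Huh7 anti-HOXA13 (8.83% over all chromosomes), and under 1.34% (0.822 to 2.07%) of 9q and 0.262% (0.0317 to 0.942%) of 9p intervals in HepG2 anti-HOXA13 (1.82%). It lay under 8.73% (7.02 to 10.7%) of 9q and 8.44% (4.57 to 14.0%) of 9p intervals in Huh7 anti-HA (8.13%), and under 17.6% (15.05 to 20.4%) of 9q and 8.51% (5.73 to 12.1%) of 9p intervals in HepG2 anti-HA (17.3%). Without such intervals the 9q over 9p ratio with anti-HOXA13 was 4.50 in Huh7 and 1.21 in HepG2, and with anti-HA 3.90 in Huh7 and 1.37 in HepG2. Input away from called intervals is not known here, and the part of input in these ratios was not tested.

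**Figure D4:**
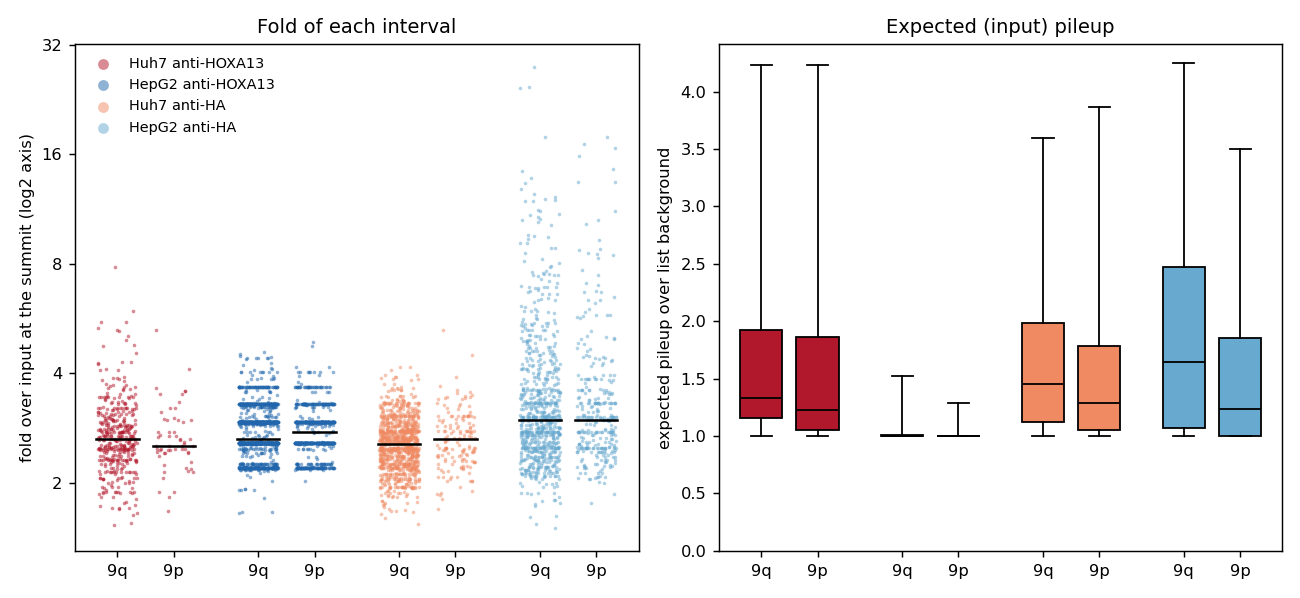
Left, fold over input (log2 axis) of every chromosome 9 interval by list and arm, with the median as a black line. Right, expected pileup over the background of the list, with boxes from the lower to the upper quartile and whiskers from the 5 to the 95 percentile; the medians of fold lie between 2.53 and 2.98 in all 8 groups, and only HepG2 anti-HA reaches above 8-fold.

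The highest intervals on each arm were taken from every list. The fold of an interval is the authors' value. Its bracket covers counting error of the ChIP fragments only, with the expected pileup held fixed, so counting error of the input is left out. In Huh7 anti-HOXA13 the highest lay on 9q at 95746164 to 95746533, with 7.83-fold (5.75 to 10.4) from 44 ChIP fragments. It was overlapped by a HepG2 anti-HOXA13 interval of 2.58-fold. The next 9q intervals of Huh7 anti-HOXA13 lay at 115804910 to 115806059 with 5.93-fold (4.03 to 8.47), 90659138 to 90659414 with 5.54-fold (3.73 to 7.95), 81582984 to 81583311 with 5.54-fold (4.08 to 7.36) and 140840096 to 140840311 with 5.33-fold (3.53 to 7.74). The counting intervals of these last 4 overlap widely, so their order is not fixed.

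On 9p, Huh7 anti-HOXA13 was led by 998434 to 999049, at 5.25-fold (3.85 to 6.995), which HepG2 anti-HOXA13 held at 3.32-fold. The following 9p interval, 13037958 to 13038102, stood at 4.11-fold (2.57 to 6.27), and the other 3 of the first 5, all inside the 33 to 38 Mb block, stood between 3.57-fold and 3.65-fold. Only the first of these 5 was a strong call.

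Huh7 anti-HA had lower folds. Its highest chromosome 9 interval lay on 9p at 2771129 to 2771453, with 5.26-fold (3.23 to 8.16) from 18 fragments, and no other list held it. On 9q the first was 82029031 to 82029196 at 4.15-fold (2.40 to 6.78), equalled by 94505515 to 94505671, and both rested on 14 fragments. The interval at 139622387 to 139622846, with 4.10-fold (2.89 to 5.65) from 35 fragments, was the 1 strong call on 9q. HepG2 anti-HA held it at 4.05-fold.

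HepG2 anti-HOXA13 was led on 9q by 68380337 to 68380645, at 4.59-fold (2.74 to 7.29), which overlapped a Huh7 anti-HA interval of 3.46-fold, and by 68431274 to 68431588 at 4.52-fold (2.56 to 7.50). Both lie in the 65 to 72 Mb stretch. Its first 9p intervals, 46883181 to 46883396 at 4.89-fold (2.77 to 8.11) and 44101763 to 44101886 at 4.77-fold (2.64 to 8.06), lie close to the stretch with no interval. None of its first 5 on 9p was held by another list. Such overlap was rare in the whole list. Over the autosomes and X, 0.356% of its intervals overlapped Huh7 anti-HOXA13, 0.553% Huh7 anti-HA and 2.12% HepG2 anti-HA.

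HepG2 anti-HA had the strongest chromosome 9 intervals by far. On 9q it was led by 114111863 to 114112469 with 27.8-fold (23.1 to 33.1) from 124 fragments, where 3.50 were expected. An interval less than 1 kb away, 114111051 to 114111576, stood at 14.4-fold (11.6 to 17.7) and was held by Huh7 anti-HA at 3.18-fold. The interval at 82104528 to 82105192 stood at 24.4-fold (19.7 to 29.9), and another close to it at 82188437 to 82188880 at 17.8-fold (14.2 to 21.99). At 94756554 to 94757181 it reached 24.3-fold (20.3 to 28.8), against 2.30-fold in Huh7 anti-HA.

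On 9p the highest HepG2 anti-HA intervals were 14913405 to 14913874 at 17.8-fold (14.1 to 22.3), 19201904 to 19202611 at 17.02-fold (14.2 to 20.2), 35529253 to 35529764 at 16.7-fold (13.0 to 21.1), 673647 to 674092 at 15.8-fold (13.1 to 18.96) and 6590639 to 6591169 at 14.6-fold (12.2 to 17.3). None of these 5 overlapped an interval of any other list. Over the autosomes and X, 7.08% of the HepG2 anti-HA intervals overlapped Huh7 anti-HA, 4.36% HepG2 anti-HOXA13 and 0.628% Huh7 anti-HOXA13. The one at 35529253 lies inside the 33 to 38 Mb block. Input was raised under the last.

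On neither arm could the share of stronger HepG2 anti-HA intervals found in Huh7 be told apart from that over the autosomes and X. Of those of at least 5-fold, 14 of 108 (13.0%, 7.27 to 20.8%) on 9q and 3 of 39 (7.69%, 1.62 to 20.9%) on 9p overlapped a Huh7 anti-HA interval, against 443 of 3807 (11.6%, 10.6 to 12.7%) on the autosomes and X. Outside the 33 to 38 Mb block of 9p it was 1 of 30 (3.33%, 0.0844 to 17.2%). At 10-fold or more, 3 of 23 on 9q and 0 of 10 on 9p overlapped, against 19.5% on the autosomes and X; the interval of the 9p share reaches 30.8%, so a difference was not detectable at this number.

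Over all intervals, the same antibody in the other line shared more of the anti-HA lists than of the anti-HOXA13 lists. Of the Huh7 anti-HA intervals on chromosome 9, 92 of 1116 (8.24%, 6.70 to 10.0%) overlapped a HepG2 anti-HA interval, against 8.82% on the autosomes and X. In the other direction 92 of 1129 (8.15%, 6.62 to 9.90%) of the HepG2 anti-HA intervals overlapped one of Huh7 anti-HA, against 7.08%. By arm these were 79 of 800 on 9q (9.88%, 7.90 to 12.2%) and 13 of 329 on 9p (3.95%, 2.12 to 6.66%), where Huh7 offered 962 and 154 intervals to meet. With anti-HOXA13, 12 of 468 Huh7 intervals (2.56%, 1.33 to 4.44%) overlapped 1 of HepG2, against 2.4%, and 12 of 2254 HepG2 intervals (0.532%, 0.275 to 0.928%) overlapped 1 of Huh7, against 0.356%. The autosomes and X include chromosome 9. With the arms pooled the shares on chromosome 9 were near those over the autosomes and X. For HepG2 anti-HA the interval of the 9q share lies above 7.08% and that of the 9p share below it. The arms were chosen by the Huh7 counts, so this difference between them carries no test. In the other direction, 78 of 962 Huh7 anti-HA intervals on 9q (8.11%, 6.46 to 10.0%) and 14 of 154 on 9p (9.09%, 5.06 to 14.8%) overlapped 1 of HepG2 anti-HA. Both of these intervals hold the 8.82% of the autosomes and X. Without raised input the Huh7 anti-HA share was 4.12% (2.99 to 5.53%), and among intervals with q of 0.05 or below in both lists it was 25.6% (16.6 to 36.4%).

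Within a line the antibodies shared little. In Huh7, 5 of 468 anti-HOXA13 intervals (1.07%, 0.348 to 2.48%) overlapped an anti-HA interval, against 1.77%, and 5 of 1116 anti-HA intervals (0.448%, 0.146 to 1.04%) overlapped 1 of anti-HOXA13, against 0.639%. In HepG2, 19 of 1129 anti-HA intervals (1.68%, 1.02 to 2.62%) overlapped an anti-HOXA13 interval, against 4.36%, and 19 of 2254 anti-HOXA13 intervals (0.843%, 0.508 to 1.31%) overlapped an anti-HA interval, against 2.12%. In HepG2 the chromosome 9 shares were below those over the autosomes and X, which pool chromosomes of unlike density. HepG2 anti-HOXA13 held 4662 intervals on 33.5 Mb of 20q, against 1490 on 75.5 Mb of 9q. A share depends on how many intervals the other list offers to meet, and none was computed at matched density. Neither these shares nor those that follow therefore show chromosome 9 to be unusual. Between lines and antibodies, 6 of 468 Huh7 anti-HOXA13 intervals (1.28%) overlapped 1 of HepG2 anti-HA, against 2.1%, and 6 of 1129 HepG2 anti-HA intervals (0.531%) overlapped 1 of Huh7 anti-HOXA13, against 0.628%. Likewise 7 of 1116 Huh7 anti-HA intervals (0.627%) overlapped 1 of HepG2 anti-HOXA13, against 1.49%, and 7 of 2254 HepG2 anti-HOXA13 intervals (0.311%) overlapped 1 of Huh7 anti-HA, against 0.553%.

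The regions shared between lists were named by their mean rank of fold. With anti-HOXA13 in both lines the first was 115804910 to 115806059 on 9q, at 5.93-fold in Huh7 and 4.43-fold in HepG2, followed by 998434 to 999049 on 9p, at 5.25-fold and 3.32-fold. With anti-HA in both lines the first were 1462590 to 1463062 on 9p, at 3.39-fold in Huh7 and 8.57-fold in HepG2, and 114111051 to 114111576 on 9q, at 3.18-fold and 14.4-fold. In Huh7 the first region of both antibodies was 100225107 to 100225283 on 9q, at 2.67-fold in the anti-HOXA13 list and 3.30-fold in the anti-HA list. In HepG2 it was 105783351 to 105783609 on 9q, at 3.30-fold in the anti-HOXA13 list and 3.87-fold in the anti-HA list.

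No chromosome 9 region held an interval of all 4 lists, and 3 regions held intervals of 3 lists, all on 9q. At 66479295 to 66479944 the folds were 2.30 in Huh7 anti-HA, 1.92 in HepG2 anti-HOXA13 and 1.95 in HepG2 anti-HA, with raised input in both HepG2 lists. At 70490106 to 70490362 they were 2.68 with anti-HOXA13 in Huh7, and 3.33 with anti-HOXA13 and 2.58 with anti-HA in HepG2, again with raised input in both HepG2 lists. At 100225107 to 100225283 they were 2.67 in Huh7 anti-HOXA13, 3.30 in Huh7 anti-HA and 2.58 in HepG2 anti-HOXA13, with no raised input.

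Since no interval lies between 47258201 and 65602688, any boundary inside that stretch gives the same arms. The first 9q intervals had folds of 1.88 in Huh7 and 2.20 in HepG2 with anti-HOXA13, and of 2.97 in Huh7 and 3.27 in HepG2 with anti-HA. The last 9p intervals had folds of 2.47 in Huh7 and 2.57 in HepG2 with anti-HOXA13, and of 2.44 in Huh7 and 3.04 in HepG2 with anti-HA.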

How the data were processed

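ChIP-seq peak lists of 4 cell populations were used, 1 ChIP library over its own input each. Per the submitters' processing notes, reads were aligned with BWA and peaks called with MACS2, with versions and settings not given in the sources used here. They also name GRCh38, but the lists name a decoy sequence and GL000 contigs, as GRCh37 with decoy does, so coordinates are given as GRCh37, 1-based. Per the file format, the authors deposited for each interval the fold, a ratio of ChIP to expected pileup with 1 added to each, the −log10 p-value and −log10 q-value at the summit, a score and the summit offset as another whole number. The score in the deposited lists was 10 times the −log10 p, truncated, in 99.97% or more of intervals. The labels state 50 M reads per sample; total reads per library were not used here.

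MACS2's published formulas for fold and p were solved jointly for a whole-number ChIP pileup and an expected pileup per summit (tolerance 0.001 of the −log10 p; solved for 100% of chromosome 9 intervals). In Huh7 anti-HOXA13 the ChIP had been scaled by 0.812. The commonest expected pileup was taken as the genome background, at 2.60 in Huh7 anti-HOXA13, 2.61 in Huh7 anti-HA, 1.73 in HepG2 anti-HOXA13 and 2.62 in HepG2 anti-HA. Density used the chromosome length minus interval-free stretches of at least 1 Mb, taken over the 4 lists. Bins were those of 1 Mb that held an interval of any list, 2734 on the autosomes. Intervals on counts are exact Poisson, on shares exact binomial (Clopper-Pearson) and on ratios of counts or densities exact conditional, all at 95%. Those on folds are exact Poisson for the ChIP fragments, with the expected pileup held fixed. A count of 0 was given a limit of 3 counts. Overlap required 1 bp.

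Chromosome 9, its arms, the stretches and the lists were chosen with earlier results of these data known. Named regions were the 5 highest folds per list and arm, regions in 3 or more lists, and the best 5 per pair of lists by mean rank of fold, of which the first ones are printed. Gene annotation, promoters and genome sequence of GRCh37 were not used here, so no genes were assigned to intervals. Alternatives covered q and p thresholds, raised input, equal list length, the length and bins used, and the overlap rule. The counting functions were tested on simulated data. Scripts ran in Python 3.11.15 with scipy 1.17.1, pandas 2.3.3, matplotlib 3.10.9 and numpy 2.4.6.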

Additional observations from a re-analysis of the deposited data

How the results depend on the processing

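No paired analysis was possible because each condition has 1 library. Of 225 values recomputed under the alternatives, 166 stayed within the counting interval of the main value (shares of bins: within 1.5 times). Another 58 lay outside it and 1 changed side of the median autosome. That 1 was 9q in HepG2 anti-HOXA13, at 1.006 times the median autosome without the 5 Mb beside the interval-free stretch. The cause of these moves was not tested. Some of the 166 could not move, so their number overstates stability. Equal list length leaves the shortest list, Huh7 anti-HOXA13, as it was. Another split inside the interval-free stretch leaves the arms as they were, and the length used cancels in Huh7 over HepG2 ratios. For 9q over 9p ratios of interval shares, the interval used was that of the odds ratio, not of the ratio itself. The 9q over 9p ratio was 5.87 in Huh7 anti-HOXA13 at -log10 p of 3 or more, 2.79 in Huh7 anti-HA at q of 0.05 or below, and 1.007 in HepG2 anti-HOXA13 and 2.01 in HepG2 anti-HA at equal list length. Huh7 over HepG2, this ratio for anti-HA was 1.67 at q of 0.05 and 1.69 at equal length. Over the median autosome, Huh7 9q with anti-HA stood at 1.35 (q) and 1.11 (equal length), and 9p at 0.482 (q). Huh7 9p with anti-HOXA13 stood at 0.258 (-log10 p of 3). HepG2 anti-HOXA13 stood at 0.816 (q) and 0.774 (equal length) on 9q and at 0.694 (q) on 9p. HepG2 anti-HA on 9p stood at 0.809 without raised input and 0.561 at equal length. The 9q over 9p ratio of the share of strong intervals in Huh7 anti-HA was 0.160 with -log10 q of 5, from 1 interval on each arm.

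High 9q bins made up 42.9% in Huh7 anti-HA at a 1.5-fold limit. In HepG2 anti-HOXA13 they made up 31.2% (q), 10.4% (-log10 p of 3), 16.9% (equal length) and 18.2% (1.5-fold), and low 9p bins 39.6% (q), 47.9% (equal length) and 33.3% (1.5-fold). In HepG2 anti-HA high 9q bins made up 10.4% among weak calls (q above 0.05), 18.2% (q), 24.7% (equal length) and 28.6% (1.5-fold). Bins at q of 0.05 gave no value in Huh7, where the median bin was empty. Shares over all autosomal bins were not computed under these alternatives.

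Overlap of Huh7 with HepG2 was 4.76% (q) and 1.28% (summits) for anti-HOXA13, and 25.6% (q), 4.12% (no raised input) and 5.11% (summits) for anti-HA. Between the antibodies it was 0% in Huh7 and 1.80% in HepG2 (q). The 9p values of Huh7 rest on 59 anti-HOXA13 and 154 anti-HA intervals.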
